A study of Mus musculus with 23 samples.

Results

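A set of 48 genes of the cell cycle and of DNA replication was followed across ESC-derived and native LKS cells. The genes were taken by symbol from the array table, and 45 of the 48 had a probe. They had 83 of the 25697 probes of the array. Of the 45 genes, 17 belong to DNA replication, 9 to mitosis, 7 to the cyclins and kinases of G1, 6 are inhibitors of cyclin-dependent kinases (CDKs), and 6 are pocket proteins or E2F transcription factors. Cdk4, Aurkb and Mki67 had no probe, and their expression was not analysed here.

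LKS cells carry ckit and Sca-1 on the surface and lack markers of mature blood lineages, a combination that in BM and FL enriches for blood stem and progenitor cells. The study compared such cells made from ESCs with native ones on 23 bead arrays. ESC-derived cells were sorted for ckit and Sca-1 at day 7 of differentiation from Static flasks (3 arrays), from Spinner flasks (3 arrays) and from Synthecon rotating vessels (8 arrays), the last 2 cultures being called dynamic. Native LKS cells were taken from BM of 10-week-old mice (3 arrays) and at embryonic day 15 from FL (3 arrays), while Undifferentiated ESCs at day 0 had 3 arrays. All groups have the strain background 129X1/SvJ x 129S1. The ESC-derived groups and the Undifferentiated group come from a single ESC line, R1, kept on inactivated embryonic fibroblasts as feeder cells. Lineage-positive cells were first removed from BM and FL suspensions, whereas day 7 cells were sorted without a lineage cocktail because the study saw no lineage-positive cells there.

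A dividing cell passes G1 when D cyclins with Cdk4 or Cdk6, and then E cyclins with Cdk2, phosphorylate the pocket proteins, which otherwise hold E2F factors in check. Released E2F factors switch on the genes that license and copy DNA, and a later wave of genes drives mitosis. CDK inhibitors of the Cip/Kip and Ink4 families oppose these kinases. Adult blood stem cells are known for long quiescence, while ESCs are known for a short G1 and rapid division.

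Values are the authors' quantile-normalized log2 intensities, a gene is read from its brightest probe, and a gene counts as above background on an array at a detection p under 0.01. The 8 Synthecon arrays fell into 2 sets, A (replicates 1, 3, 5 and 7) and B (replicates 2, 4, 6 and 8). Within a set and slide the arrays differed by a median of 0.0794 to 0.0922 on the log2 scale over bright probes, while replicates of the other groups differed by 0.1035 to 0.4447, so each set was averaged and counted as 1 sample, which gives 17 samples. Each set spans slides 2 and 3. Across slides the median difference within a set was 0.2307 to 0.2524, larger than between the sets on 1 slide (0.1775 to 0.1909). Nothing in the labels says that replicates came from separate cultures or animals beyond calling them biological replicates, so p-values measure the spread between these samples.

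Some samples stood apart. Static replicate 1 had a log2 value of 12.49 for the pluripotency factor Pou5f1 and 7.07 for the neutrophil granule enzyme Mpo, against 8.78 and 7.24 (Pou5f1) and 12.35 and 12.64 (Mpo) in the other two Static samples. Undifferentiated replicate 2 had 9.29 for the fibroblast collagen Col1a1, against 6.74 and 7.54 in replicates 1 and 3. Of the other fibroblast markers Col1a2, Col3a1, Thy1 and Pdgfrb were also highest in that replicate of its group. Dcn was not, and Lum and Postn were below background in the group. Static replicates 2 and 3 had more Col1a1 (10.73 and 10.21) and less Thy1 (5.92 and 6.22, against 10.74). All 8 pluripotency markers checked were above background on every Spinner, Synthecon and Undifferentiated array and 5 on every Static array. None of the 8 was above background on a BM array. Of the 9 blood stem and progenitor markers with a probe, 3 were above background on every Static array, 1 on every Spinner array, 3 on every Synthecon array, 8 on every BM array and 7 on every FL array. The pan-blood marker Ptprc was below background on all Static, Spinner and Synthecon arrays, and Kit had no probe. BM and FL cells also carried RNA of maturing cells: all 8 neutrophil markers were above background on every BM and FL array, with a summed log2 level of 16.71 to 17.52 in BM and 16.51 to 16.87 in FL, against 9.20 to 12.80 in Static, 8.99 to 9.08 in Spinner and 9.01 to 9.42 in Synthecon samples.

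Of the 45 genes, 32 were above background on all 23 arrays. Pola1, a subunit of DNA polymerase alpha, the mitotic cyclin Ccnb2, the spindle checkpoint kinase Bub1, the CDK inhibitor Cdkn1b and the pocket protein Rbl2 were above background on none, so their values carry no level. In limma's F test over the 6 groups 29 of the 45 genes differed at an adjusted p under 0.05, beside 45.8% of all 18096 genes on the array. That share includes many genes without a level. The share over the 10039 genes above background on at least 3 arrays was not taken for this test, so no excess is read from the count. Because these are bulk samples, fewer cells of a type and less RNA per cell cannot be told apart in any value that follows.

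G1 regulators and the genes of replication and mitosis differed in how far their group means spread. The range from the lowest to the highest of the 6 group means had a median of 0.96 on the log2 scale over the 17 replication genes and 0.89 over the 9 mitosis genes. It had a median of 2.36 over the 7 G1 cyclins and kinases, 1.88 over the 6 CDK inhibitors and 1.81 over the 6 pocket proteins and E2F genes. Of the 26 replication and mitosis genes 0 had a range over 2 on the log2 scale, whereas 10 of the 19 G1 regulators did (52.6%), beside 22.3% of the 10039 genes above background on at least 3 arrays. These ranges are a description of 6 means and were not tested, and they understate the spread of dim probes.

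**Figure D1:**
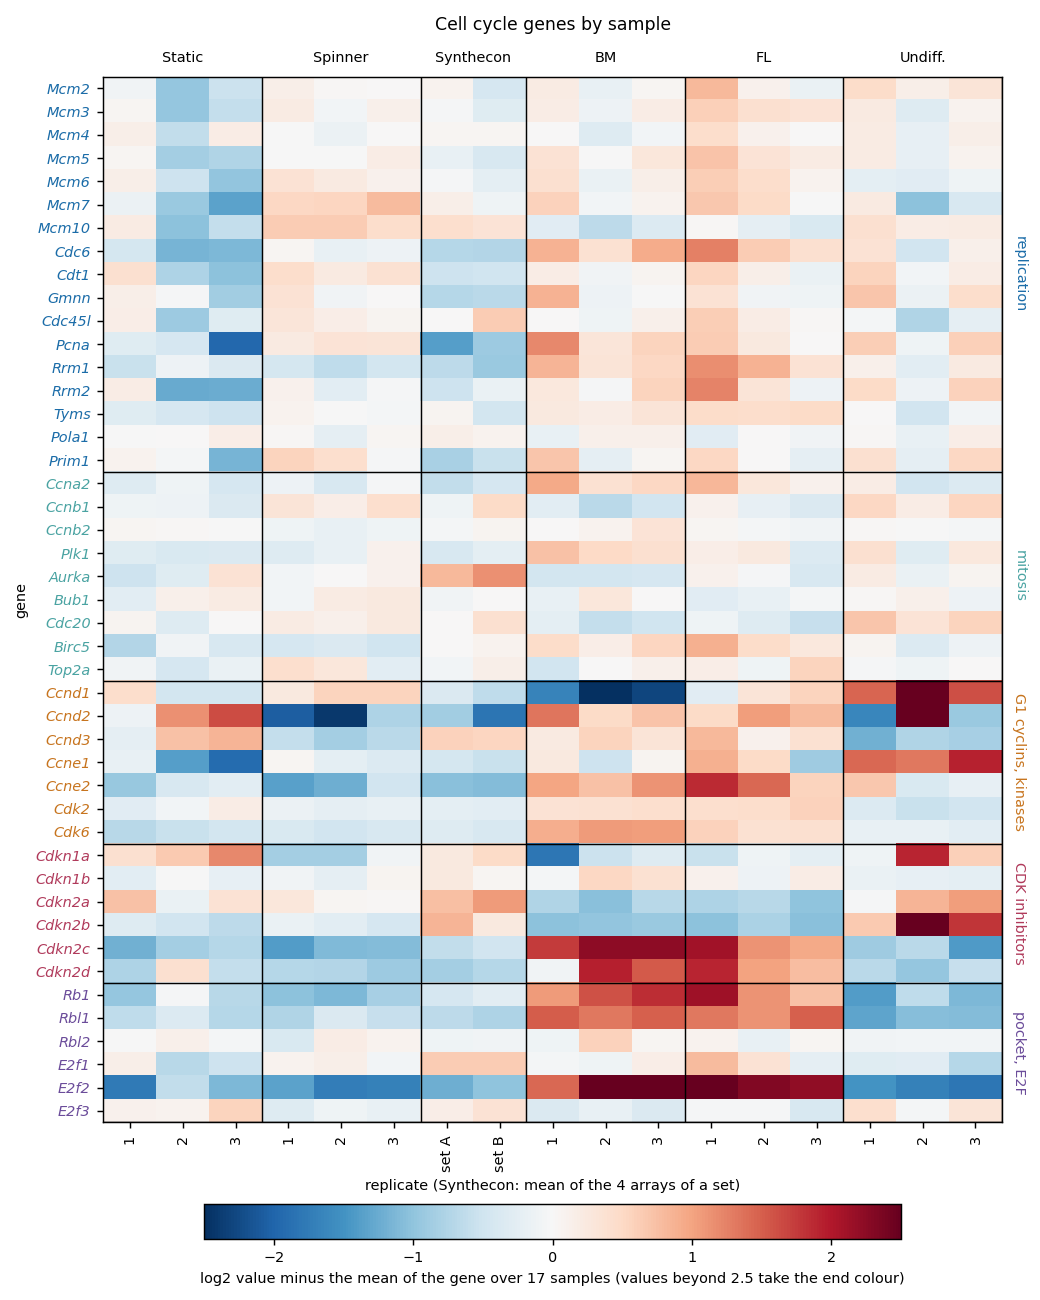
Heat map of the 45 genes with a probe (rows, by role) in the 17 samples (columns, by group), each square being the log2 value minus the gene's mean, with colours saturating at 2.5. E2f2, Rbl1, Rb1, Cdkn2c and Cdkn2d were high in BM and FL samples, apart from Cdkn2d in BM replicate 1, and replication genes varied less than these.

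The promoters of these genes were read as well, because E2F factors are themselves among the members and because the later wave of mitotic genes is known to carry a different element. The window ran from 250 bases before to 50 after each gene's start in RefSeq's annotation of build GRCm38.p6, and 40 of the 48 genes had an entry. Mcm4, Gmnn, Ccna2, Aurkb, Ccnd1, Ccnd2, Ccne2 and Rb1 had none, while Cdk4 and Mki67, without a probe, had one. An E2F motif was searched as TTTNNCGC, the cell cycle homology region (CHR) as TTTGAA, the CCAAT box as CCAAT and the GC box as GGGCGG, each on both strands. The E2F motif was in 14 of the 40 windows (35%), against 5.93% of the windows of all 27025 genes. It was in 8 of 15 replication genes, 2 of 5 G1 cyclins and kinases, 1 of 6 CDK inhibitors and 3 of 5 pocket protein and E2F genes, and in 0 of 9 mitosis genes. The CHR was in 6 of 9 mitosis genes (Mki67 among them), 3 of 5 pocket protein and E2F genes, 1 of 6 CDK inhibitors, 2 of 15 replication genes and 0 of 5 G1 cyclins and kinases, against 20.2% of all windows. In the bases before the start alone the E2F motif was in 5 of 15 replication genes and the CHR in 4 of 9 mitosis genes, against 4.94% and 18.3% of all windows. CCAAT boxes were in 28 of the 40 windows (70.0%), against 41.1% of all windows, and GC boxes in 34 (85%), against 38.2%. A match is a string of letters and not a measured binding site.

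**Figure D2:**
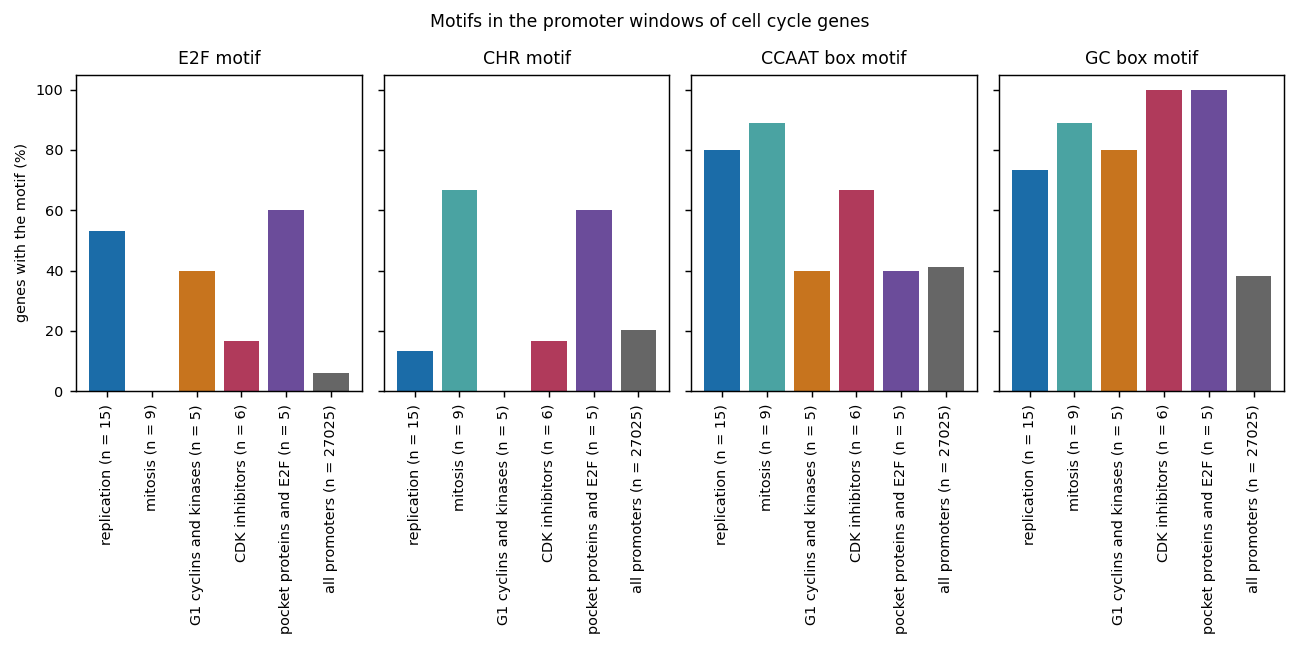
Percentage of genes whose 300-base promoter window holds each motif on either strand, by role and over all promoters, with the number of genes in brackets. The E2F motif was found in 8 of 15 replication genes and in 0 of 9 mitosis genes, and the CHR in 6 of 9 mitosis genes and in 3 of 5 pocket protein and E2F genes.

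Stretches of 5 promoters with E2F motifs are shown because their genes, the pocket protein Rbl1, the helicase subunits Mcm5 and Mcm6, the loading factor Cdc6 and the kinase Cdk2, take part in the comparisons that follow. Capitals mark E2F matches on either strand, each stretch runs 5′ to 3′ along the gene's strand, and overlapping matches were joined. The stretches lie at chr2:157204535-157204594 (Rbl1, minus strand), chr8:75109329-75109388 (Mcm5, plus strand), chr1:128359736-128359825 (Mcm6, minus strand), chr11:98907991-98908050 (Cdc6, plus strand) and chr10:128705152-128705211 (Cdk2, minus strand) of GRCm38.p6, all before the gene's start.
Rbl1: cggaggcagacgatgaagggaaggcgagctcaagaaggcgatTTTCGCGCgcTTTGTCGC
Mcm5: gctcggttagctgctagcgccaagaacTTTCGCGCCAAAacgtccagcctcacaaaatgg
Mcm6: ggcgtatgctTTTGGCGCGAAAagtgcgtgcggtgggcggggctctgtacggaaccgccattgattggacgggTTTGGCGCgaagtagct
Cdc6: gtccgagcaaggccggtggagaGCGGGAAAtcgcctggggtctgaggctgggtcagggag
Cdk2: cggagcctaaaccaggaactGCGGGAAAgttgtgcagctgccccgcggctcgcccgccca

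For contrast, the promoters of Cdc20, an activator of the anaphase-promoting complex, and of Top2a, the mitotic topoisomerase, held a CHR and CCAAT boxes, which are in capitals here. They lie at chr4:118437344-118437403 (Cdc20, minus strand) and chr11:99024190-99024299 (Top2a, minus strand).
Cdc20: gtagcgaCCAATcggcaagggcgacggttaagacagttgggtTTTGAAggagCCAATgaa
Top2a: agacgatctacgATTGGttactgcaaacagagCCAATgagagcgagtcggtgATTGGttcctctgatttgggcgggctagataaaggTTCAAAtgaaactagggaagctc

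The first question was how far the cell cycle genes of ESC-derived LKS cells differed from those of native LKS cells, taken as the mean of BM and FL. E2f2, the pocket protein genes Rb1 and Rbl1, the Ink4 inhibitors Cdkn2c and Cdkn2d and both E cyclins fell in Static cells, with E2f2 13-fold lower, and 10 of the 17 replication genes fell too. In Static cells 3 of the 45 genes rose and 22 fell, beside 14.5% of all genes that rose and 13.8% that fell. In dynamic cells (the mean of Spinner and Synthecon) 6 rose and 18 fell, beside 20.8% and 18.1% of all genes. Over the 10039 genes above background on at least 3 arrays the shares were larger. They were 23.2% and 21.1% in Static and 33.6% and 26.8% in dynamic cells. Both comparisons use the same BM and FL samples, so their values are given side by side and not counted as 2 independent results. With the array slide as a block, Cdkn2d, E2f3 and Rrm2 were lost in Static cells, where 2 genes rose and 20 fell, and the 24 calls in dynamic cells were kept. Within slide 2, which holds Spinner replicate 3, Synthecon replicates 1 and 2, BM replicates 2 and 3 and the FL samples, 7 genes rose and 14 fell in dynamic cells, 20 of them among the 24. The median log2 fold change of replication genes was -0.71 in Static and -0.30 in dynamic cells, that of pocket protein and E2F genes was -1.23 and -1.08, and that of all genes was -0.03 and -0.01.

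**Figure D3:**
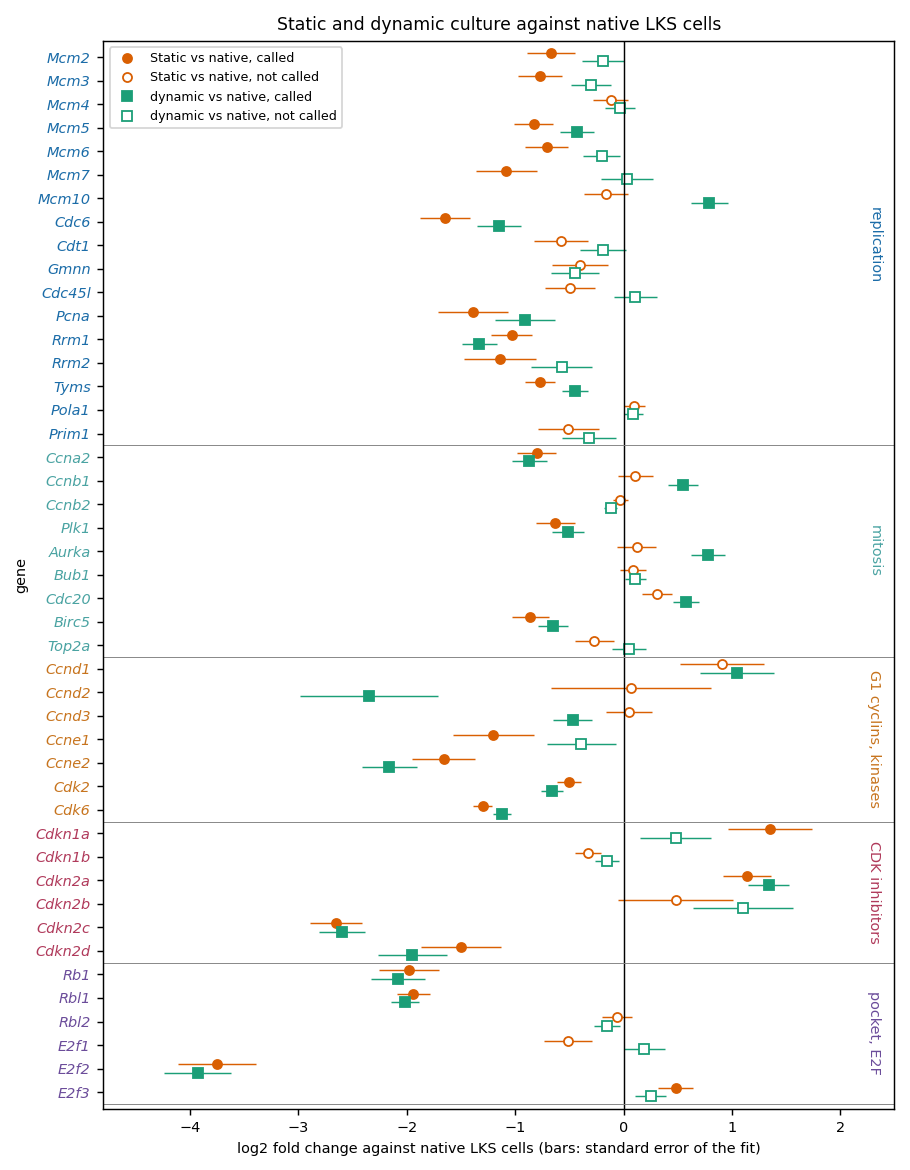
Log2 fold change of each gene against native LKS cells (mean of BM and FL) with the standard error of the fit, for Static (circles) and dynamic cells (squares), filled where the adjusted p was under 0.05. E2f2, at -3.75 and -3.93, lay farthest to the left, and 22 genes were lower in Static cells.

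E2f2 encodes an E2F factor of the activating class that also limits division of blood progenitors in mice. Its log2 values were 7.62, 8.76 and 8.26 in Static, 8.04, 7.65 and 7.69 in Spinner, 8.16 and 8.37 in the Synthecon sets, 10.81, 12.42 and 12.21 in BM, and 13.03, 11.70 and 11.59 in FL samples. Undifferentiated ESCs had 7.89, 7.70 and 7.57. Every native sample lay above every ESC-derived and Undifferentiated sample. The log2 fold change against native cells was -3.75 ± 0.36 (SE) in Static (adjusted p = 1e-06) and -3.93 ± 0.31 in dynamic cells (adjusted p = 7.2e-08). Against Undifferentiated ESCs native cells were 4.24 ± 0.36 higher on the log2 scale (adjusted p = 2.8e-07). BM replicate 1, at 10.81, was the lowest native sample.

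Rbl1 (p107) and Rb1 are pocket proteins that bind E2F factors. Rbl1 read 8.13, 8.43 and 8.06 in Static, 8.01, 8.40 and 8.20 in Spinner, 8.11 and 7.99 in Synthecon, 10.29, 10.08 and 10.26 in BM, and 10.09, 9.89 and 10.26 in FL samples. Undifferentiated ESCs lay below all of them at 7.45, 7.71 and 7.68. Rbl1 had the largest F statistic of the 45 genes (82.5). Its log2 fold change was -1.94 ± 0.15 in Static and -2.02 ± 0.13 in dynamic cells against native cells (adjusted p = 8.2e-08 and 7.5e-09).

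Against Undifferentiated ESCs Rbl1 was higher in Static cells by 0.59 ± 0.17 and in dynamic cells by 0.51 ± 0.16 (log2, adjusted p = 0.033 and 0.048), and in native cells by 2.53 ± 0.15 (adjusted p = 5.2e-09). The dynamic call is lost in 13 of 17 fits that left out 1 sample, among them those without Synthecon set A or B or any 1 Undifferentiated sample. The Static call is lost when Undifferentiated replicate 1 (0.51, adjusted p = 0.13), Undifferentiated replicate 3 (0.63, 0.075) or Static replicate 2 (0.48, 0.11) is left out. Rb1 had 9.34, 10.28 and 9.61 in Static, 9.29, 9.19 and 9.48 in Spinner, 9.88 and 10.05 in Synthecon, 11.38, 11.90 and 12.15 in BM, and 12.43, 11.42 and 11.04 in FL samples. Undifferentiated ESCs had 8.91, 9.67 and 9.18, within the span of the ESC-derived samples or below it. Rb1 had a log2 fold change of -1.98 ± 0.28 in Static and -2.08 ± 0.25 in dynamic cells against native cells (adjusted p = 6.9e-05 and 4.8e-06).

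The other activating E2F genes did not share this pattern. E2f1 read 10.80, 9.95 and 10.13 in Static, 10.73, 10.80 and 10.59 in Spinner, 11.28 and 11.28 in Synthecon, 10.61, 10.54 and 10.81 in BM, 11.44, 11.01 and 10.42 in FL, and 10.35, 10.36 and 9.94 in Undifferentiated samples. Undifferentiated samples lay below every Spinner, Synthecon, BM and FL sample, and both Synthecon sets above every Static, Spinner and BM sample, while Static samples overlapped with all groups but Synthecon. Against Undifferentiated ESCs E2f1 was higher by 0.78 ± 0.22 in dynamic and by 0.59 ± 0.22 in native cells (log2, adjusted p = 0.038 and 0.048), calls lost in 10 and 13 of 17 fits that left out 1 sample. E2f3 stayed between 8.16 and 9.12 in all samples, with group means of 8.81 ± 0.27 in Static, 8.35 ± 0.11 in Spinner, 8.82 ± 0.14 in Synthecon, 8.25 ± 0.11 in BM and 8.41 ± 0.21 in FL (SD, n = 3, and n = 2 for Synthecon). Its rise in Static cells against native cells was 0.48 ± 0.16 (log2, adjusted p = 0.037), and it is lost without Static replicate 3 (0.33, adjusted p = 0.19), BM replicate 1 (0.47, 0.06), BM replicate 3 (0.47, 0.07) or FL replicate 3 (0.42, 0.068).

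The genes of the CDK inhibitors went opposite ways. Cdkn2c (p18Ink4c), an Ink4 inhibitor that restrains Cdk4 and Cdk6 and division of blood stem cells in mice, read 6.68, 7.03 and 7.16 in Static, 6.47, 6.78 and 6.80 in Spinner, 7.26 and 7.40 in Synthecon, 9.62, 10.12 and 10.11 in BM, 9.98, 8.99 and 8.83 in FL, and 6.98, 7.21 and 6.45 in Undifferentiated samples. It was above background on 2 of 3 Static, 1 of 3 Spinner and 2 of 3 Undifferentiated arrays and on all the others, and native samples did not overlap with the rest. It had a log2 fold change of -2.65 ± 0.24 in Static and -2.60 ± 0.21 in dynamic cells against native cells (adjusted p = 5.2e-07 and 7.8e-08).

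Cdkn2d (p19Ink4d) belongs to the same family. It read 7.78, 8.94 and 7.94 in Static, 7.83, 7.81 and 7.64 in Spinner, 7.70 and 7.83 in Synthecon, 8.45, 10.48 and 10.07 in BM, 10.45, 9.55 and 9.32 in FL, and 7.87, 7.58 and 7.97 in Undifferentiated samples. BM replicate 1, at 8.45, lay below Static replicate 2, so the Static and native samples overlapped. The fold change was -1.50 ± 0.37 in Static (log2, adjusted p = 0.0065) and -1.95 ± 0.32 in dynamic cells (adjusted p = 1.4e-04). With the array slide as a block the Static value was -0.93 with an adjusted p of 0.13.

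Cdkn2a, the gene of p16Ink4a and p19Arf, went the other way. It read 8.14, 7.25 and 7.76 in Static, 7.70, 7.46 and 7.44 in Spinner, 8.15 and 8.47 in Synthecon, 6.65, 6.37 and 6.71 in BM, 6.63, 6.71 and 6.40 in FL, and 7.38, 8.26 and 8.45 in Undifferentiated samples. All 6 native samples were below background and below every other sample. It was therefore at least 1.71-fold higher in Static and at least 1.97-fold higher in dynamic cells than in native cells, where the bound sets the mean of the brighter side against the lowest signal above background (adjusted p = 0.0012 and 3.7e-05). Native cells were at least 2.13-fold below Undifferentiated ESCs (adjusted p = 1.1e-04). A second Cdkn2a probe, also below background on the native arrays, was at least 3.02-fold higher in Static and at least 1.88-fold higher in dynamic cells. Both probes were annotated to the same transcript, so the values do not tell p16Ink4a and p19Arf apart.

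Cdkn2b (p15Ink4b), the neighbour of Cdkn2a on the chromosome, was below background in all Static (6.45, 6.30 and 6.11), Spinner (6.61, 6.50 and 6.35), BM (5.74, 5.79 and 5.85) and FL (5.75, 5.98 and 5.73) samples and above it in Synthecon (7.62 and 7.01) and Undifferentiated samples (7.42, 11.34 and 8.56). Undifferentiated replicate 2, which had the highest Col1a1 of its group, had the highest value. Against Undifferentiated ESCs Cdkn2b was at least 4.95-fold lower in Static (adjusted p = 0.0068) and at least 4.49-fold lower in native cells (adjusted p = 1.5e-04). Without Undifferentiated replicate 2 these bounds were 2.28-fold and 2.07-fold, both still called (adjusted p = 7.3e-04 and 4.5e-06). The log2 fold change of dynamic cells was -2.20 ± 0.55 (adjusted p = 0.018). It was -1.09 without Undifferentiated replicate 2 (adjusted p = 0.011), and the call was lost without Synthecon set B (-2.05, adjusted p = 0.071).

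Cdkn1a (p21), the p53 target that inhibits Cdk2, read 10.65, 10.91 and 11.45 in Static, 9.41, 9.40 and 10.16 in Spinner, 10.49 and 10.72 in Synthecon, 8.44, 9.71 and 9.93 in BM, 9.69, 10.15 and 10.00 in FL, and 10.14, 12.16 and 10.85 in Undifferentiated samples. Every Static sample lay above every native sample. It rose by 1.35 ± 0.39 in Static cells against native cells (log2, adjusted p = 0.015), a call lost without Static replicate 3 (1.13, adjusted p = 0.084). The log2 fold change of native cells against Undifferentiated ESCs was -1.40 ± 0.39 (adjusted p = 0.01), a call lost without Undifferentiated replicate 2 (-0.84, adjusted p = 0.096). Cdkn1b (p27) was below background on every array, with group means of 6.01 ± 0.13 in Static, 6.09 ± 0.14 in Spinner, 6.31 ± 0.14 in Synthecon, 6.46 ± 0.29 in BM, 6.23 ± 0.16 in FL and 5.97 ± 0.04 in Undifferentiated samples, and no fold is given for it.

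**Figure D4:**
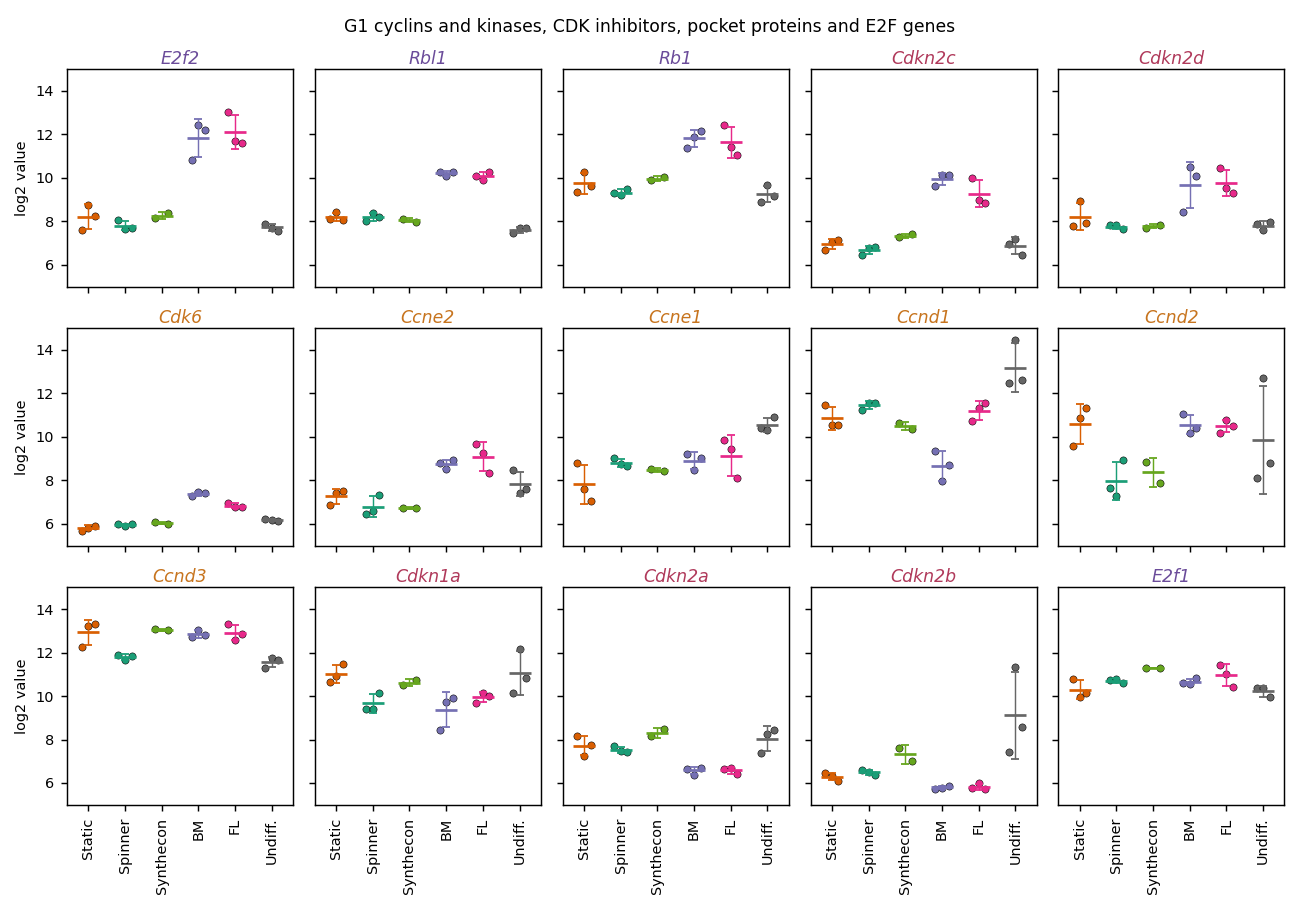
Log2 value of 15 G1 regulators in each sample (points), with the group mean (line) and SD (bar), for Static, Spinner, Synthecon (2 set means), BM, FL and Undifferentiated (Undiff.) samples. In the panels of E2f2, Rbl1 and Rb1 all 6 native samples lay above all other samples, and Undifferentiated replicate 2 stood apart in those of Ccnd2 and Cdkn2b.

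The 3 D cyclins, which activate Cdk4 and Cdk6, each had a pattern of their own. Ccnd1 was highest in Undifferentiated ESCs and lowest in BM: it read 11.46, 10.55 and 10.55 in Static, 11.25, 11.58 and 11.58 in Spinner, 10.65 and 10.38 in Synthecon, 9.35, 7.97 and 8.71 in BM, 10.73, 11.34 and 11.57 in FL, and 12.47, 14.47 and 12.63 in Undifferentiated samples. Every BM sample lay below every other sample, and every Undifferentiated sample above. The log2 fold change of BM against FL was -2.54 ± 0.45 (adjusted p = 0.0085). That call is lost without BM replicate 2, where the value is -2.19 with an adjusted p of 0.057.

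Against Undifferentiated ESCs the log2 fold change of Ccnd1 was -2.34 ± 0.45 in Static, -2.20 ± 0.41 in dynamic and -3.25 ± 0.39 in native cells (adjusted p = 0.0035, 0.0027 and 9.5e-06). Without Undifferentiated replicate 2, the highest sample, the Static, dynamic and native values were -1.70, -1.56 and -2.61. Its rise of 1.05 ± 0.34 in dynamic against native cells (adjusted p = 0.022) combines BM and FL samples that did not overlap, and it is lost without FL replicate 1 (0.93, adjusted p = 0.056), BM replicate 2 (0.87, 0.059) or Synthecon set A (0.98, 0.084).

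Ccnd2 was low in dynamic culture. It read 7.66, 7.30 and 8.95 in Spinner and 8.85 and 7.90 in Synthecon, against 9.59, 10.86 and 11.34 in Static, 11.06, 10.20 and 10.43 in BM and 10.20, 10.76 and 10.51 in FL samples. No dynamic sample reached the lowest Static or native sample. Undifferentiated ESCs had 8.09, 12.71 and 8.79, and the group's SD of 2.49 came from replicate 2. The log2 fold change of dynamic cells was -2.35 ± 0.64 against native cells (adjusted p = 0.0079) and -2.42 ± 0.77 against Static cells (adjusted p = 0.046). The second of these calls was lost in 11 of 17 fits that left out 1 sample, while without Undifferentiated replicate 2 it had the same value of -2.42 with an adjusted p of 0.0016.

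Ccnd3, the D cyclin of maturing blood cells, read 12.27, 13.21 and 13.33 in Static, 11.90, 11.64 and 11.82 in Spinner, 13.07 and 13.02 in Synthecon, 12.72, 13.05 and 12.81 in BM, 13.30, 12.59 and 12.87 in FL, and 11.28, 11.74 and 11.65 in Undifferentiated samples. Spinner samples lay below every Static, Synthecon, BM and FL sample. Synthecon was higher than Spinner by 1.26 ± 0.27 (log2, adjusted p = 0.02), so the mean of the 2 dynamic cultures joins unlike values here. Static cells were higher than Undifferentiated ESCs by 1.38 ± 0.24 (adjusted p = 0.0017) and native cells by 1.33 ± 0.21 (adjusted p = 1.2e-04), while Spinner cells differed by 0.23 (adjusted p = 0.74). Another Ccnd3 probe, above background on all 23 arrays, had the signs of the brightest probe against Undifferentiated ESCs. Its log2 fold change was 1.22 in Static and 1.56 in native cells, both called, and 0.73 in dynamic cells, without a call. A dimmer Ccnd3 probe, above background on only 3 arrays, had the opposite sign in Static (-0.03) and dynamic cells (-0.26), without a call.

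The E cyclins, partners of Cdk2 at the entry into S phase, also differed from each other. Ccne1 read 8.80, 7.60 and 7.06 in Static, 9.03, 8.74 and 8.64 in Spinner, 8.53 and 8.42 in Synthecon, 9.23, 8.46 and 9.05 in BM, 9.87, 9.46 and 8.09 in FL, and 10.42, 10.30 and 10.91 in Undifferentiated samples, which lay above all others. Against Undifferentiated ESCs the log2 fold change was -2.72 ± 0.43 in Static, -1.90 ± 0.39 in dynamic and -1.52 ± 0.37 in native cells (adjusted p = 8.7e-04, 0.0053 and 0.005). With the slide as a block the native value was -1.10 (adjusted p = 0.091). Against native cells Static cells had a log2 fold change of -1.20 ± 0.37 (adjusted p = 0.025), a call lost without Static replicate 2 (-1.09, 0.088), Static replicate 3 (-0.82, 0.16), FL replicate 1 (-1.02, 0.053) or FL replicate 2 (-1.12, 0.052).

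Ccne2 had its highest group means in native cells. It read 6.86, 7.40 and 7.53 in Static, 6.45, 6.59 and 7.33 in Spinner, 6.75 and 6.71 in Synthecon, 8.78, 8.53 and 8.93 in BM, 9.67, 9.24 and 8.36 in FL, and 8.47, 7.43 and 7.60 in Undifferentiated samples. Native samples lay above all ESC-derived samples. Its log2 fold change was -1.66 ± 0.29 in Static and -2.16 ± 0.25 in dynamic cells (adjusted p = 4.6e-04 and 4.3e-06).

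The 2 kinases with a probe were Cdk6 and Cdk2. Cdk6, the partner of D cyclins in blood progenitors, was above background only on the 3 BM arrays (7.29, 7.46 and 7.43), with 6.97, 6.76 and 6.78 in FL and 5.69 to 6.21 in all other samples. BM was at least 1.38-fold higher than FL (adjusted p = 0.014), a call lost without BM replicate 2 (log2 value 0.52, adjusted p = 0.069), BM replicate 3 (0.54, 0.068) or FL replicate 2 (0.52, 0.075). Static cells were at least 1.51-fold, Spinner cells at least 1.52-fold and Synthecon cells at least 1.6-fold lower than BM (adjusted p = 2.6e-08, 8e-08 and 5.4e-07). Between them and FL no level was measured on either side, so the calls of Cdk6 against native cells rest on BM. Cdk2 averaged 11.97 ± 0.23 in Static, 11.83 ± 0.04 in Spinner, 11.77 ± 0.01 in Synthecon, 12.41 ± 0.04 in BM, 12.51 ± 0.09 in FL and 11.57 ± 0.11 in Undifferentiated samples (SD, n = 3, and n = 2 for Synthecon). Cdk2 was higher in native cells, with a log2 fold change of -0.50 in Static and -0.66 in dynamic cells against them, and native cells were 0.89 ± 0.11 higher than Undifferentiated ESCs (log2, adjusted p = 1.4e-05).

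Every BM and FL sample also had more neutrophil marker RNA than any other sample, as given above, and a higher range of red cell marker RNA. The summed log2 level of the 8 erythroid markers was 10.64 to 15.39 in Static, 9.39 to 9.72 in Spinner, 9.22 to 10.36 in Synthecon, 15.43 to 16.52 in BM, 15.22 to 16.83 in FL and 9.05 to 9.14 in Undifferentiated samples, so that the highest Static sample overlapped with FL. Static replicates 2 and 3, with Mpo at 12.35 and 12.64, had E2f2 at 8.76 and 8.26 and Rbl1 at 8.43 and 8.06. Mpo does not stand for its list there. Elane, Ctsg, S100a9, Camp and Ngp, 5 of the 8 neutrophil markers, were below background on every Static array. The part of maturing cells in the native values was not tested.

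Of the 17 replication genes, 0 were higher and 10 lower in Static cells than in native cells, and 1 was higher and 5 were lower in dynamic cells. The shares of all genes were 14.5% and 13.8% in Static and 20.8% and 18.1% in dynamic cells. At an unadjusted p under 0.05 the number of higher genes in Static cells was also 0. The 10 were Mcm2, Mcm3, Mcm5, Mcm6 and Mcm7, subunits of the replicative helicase, its loading factor Cdc6, the sliding clamp Pcna, the ribonucleotide reductase subunits Rrm1 and Rrm2, and thymidylate synthase Tyms. The dynamic count of 5 depends on the probe read. Other probes of Rrm2 (-1.37) and Mcm6 (-0.52), above background on all 23 arrays, were called lower in dynamic against native cells. The brightest probes of these genes, at -0.57 and -0.20, were not. A dimmer Mcm6 probe was also called lower (-0.86), and another was not (-0.31). Static was the group with the lowest mean for 10 of the 17 genes and FL the one with the highest mean for 8. Without Static replicate 3 the Static calls of Mcm6 (-0.44, adjusted p = 0.11), Mcm7 (-0.81, 0.066) and Rrm2 (-0.91, 0.094) are lost, and without Static replicate 2 those of Mcm3 (-0.54, 0.069) and Rrm2 (-0.90, 0.093). The call of Mcm2 (-0.67, adjusted p = 0.033) is lost in 5 of 17 such fits, without Static replicate 2 (-0.45, adjusted p = 0.18), Static replicate 3, BM replicate 1, BM replicate 3 or FL replicate 1.

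Rrm1, which makes deoxynucleotides, was the replication gene that differed most between groups by the F test. It read 10.17, 10.60 and 10.36 in Static, 10.29, 10.10 and 10.28 in Spinner, 10.08 and 9.81 in Synthecon, 11.58, 11.05 and 11.24 in BM, 11.89, 11.60 and 11.10 in FL, and 10.86, 10.46 and 10.95 in Undifferentiated samples. Native samples lay above all others. It had a log2 fold change of -1.03 ± 0.19 in Static and -1.33 ± 0.16 in dynamic cells against native cells (adjusted p = 5.9e-04 and 6.8e-06).

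Cdc6, whose promoter stretch with an E2F motif is shown above, averaged 9.38 ± 0.41 in Static, 10.20 ± 0.12 in Spinner, 9.57 in Synthecon, 11.00 ± 0.30 in BM, 11.05 ± 0.45 in FL and 10.28 ± 0.44 in Undifferentiated samples. Its log2 fold change against native cells was -1.65 ± 0.23 in Static and -1.15 in dynamic cells (adjusted p = 6e-05 for Static). Pcna read 9.35, 9.24 and 7.69 in Static, 9.89, 10.00 and 9.99 in Spinner, 8.28 and 8.76 in Synthecon, 10.87, 9.97 and 10.22 in BM, and 10.29, 9.90 and 9.67 in FL samples. The Spinner samples lay within the native samples, and the lowest values were those of Static replicate 3 and the Synthecon sets. Static replicate 3 shares slide 3 with 6 of the 8 Synthecon arrays. Synthecon arrays on slide 3 averaged 1.19 lower in Pcna on the log2 scale than the other 2 Synthecon arrays, on slide 2, so the Pcna values moved with the slide. Prim1, Cdt1 and Gmnn, at -0.94, -0.69 and -0.56, were the only other replication genes with such a difference above 0.5.

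Mcm10, which links the helicase to the polymerase, was the 1 replication gene that rose in dynamic cells against native cells. It read 11.92, 10.70 and 11.12 in Static, 12.35, 12.35 and 12.17 in Spinner, 12.15 and 12.07 in Synthecon, 11.44, 11.07 and 11.38 in BM, 11.75, 11.49 and 11.34 in FL, and 12.12, 11.91 and 11.93 in Undifferentiated samples. Every dynamic sample lay above every Static and native sample. The rise against native cells was 0.79 ± 0.17 (log2, adjusted p = 0.0016) and that against Static cells was 0.96 ± 0.21 (adjusted p = 0.0063), which was the only call between dynamic and Static cells kept in all 17 fits that left out 1 sample.

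**Figure D5:**
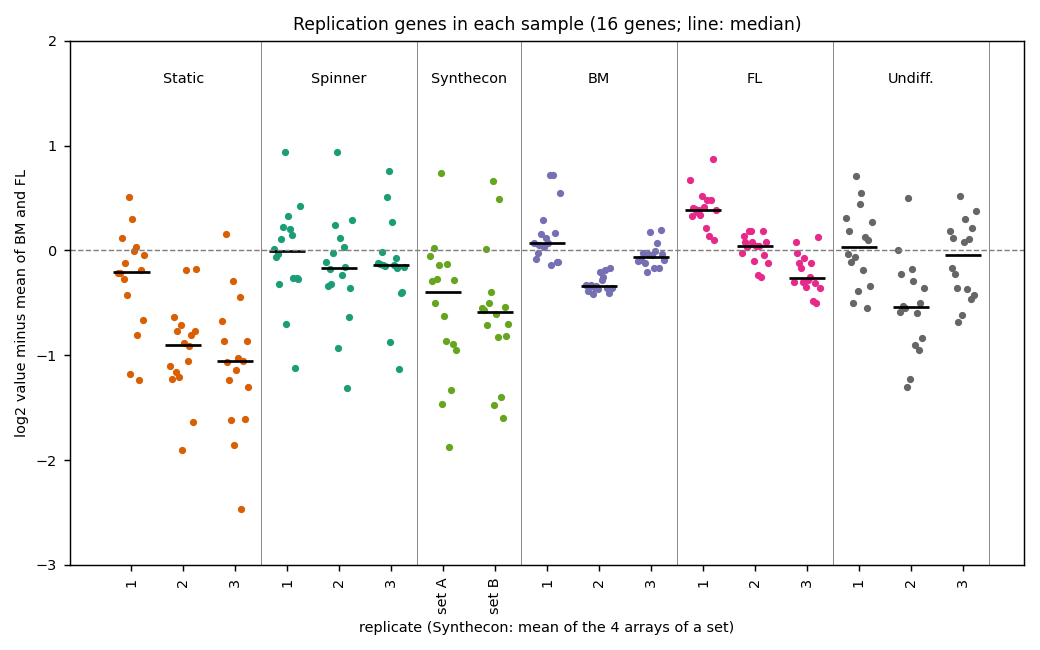
Log2 value of each of 16 replication genes (points, Pola1 left out as below background) in each sample minus the mean of its BM and FL values, with the sample's median (line). The median was -0.20, -0.90 and -1.06 in the 3 Static samples, -0.01 to -0.16 in Spinner samples, and -0.39 and -0.59 in the Synthecon sets.

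Mitosis genes went both ways in dynamic cells. Of 9 genes, 0 were higher and 3 lower in Static than in native cells (Birc5, Plk1 and Ccna2), beside 14.5% and 13.8% of all genes. In dynamic cells 3 were higher and 3 lower, beside 20.8% and 18.1% of all genes. The dynamic shares were 33.6% and 26.8% over genes above background on at least 3 arrays, and the dynamic counts of mitosis genes were near these. Cdc20, whose promoter stretch with a CHR is shown above, read 12.23, 11.84 and 12.16 in Static, 12.36, 12.28 and 12.40 in Spinner, 12.17 and 12.56 in Synthecon, 11.92, 11.57 and 11.66 in BM, 12.06, 11.83 and 11.59 in FL, and 12.85, 12.50 and 12.71 in Undifferentiated samples. All dynamic samples lay above all native samples. It rose by 0.58 ± 0.12 in dynamic against native cells (log2, adjusted p = 0.0012), and the log2 fold change of native cells against Undifferentiated ESCs was -0.91 ± 0.14 (adjusted p = 1.1e-04). The mitotic cyclin Ccnb1 rose by 0.55 ± 0.14 and the spindle kinase Aurka by 0.78 ± 0.16 in dynamic cells (adjusted p = 0.0043 and 8.1e-04).

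Aurka was high in Synthecon and not in Spinner cells. It read 10.50, 10.72 and 11.38 in Static, 10.95, 11.04 and 11.13 in Spinner, 11.84 and 12.17 in Synthecon, 10.56, 10.57 and 10.60 in BM, 11.12, 10.99 and 10.62 in FL, and 11.23, 10.86 and 11.09 in Undifferentiated samples. Both Synthecon sets lay above every other sample, by 0.96 ± 0.23 against Spinner (log2, adjusted p = 0.037) and 1.14 ± 0.23 against Static (adjusted p = 0.005). Survivin (Birc5), which serves chromosome segregation and cell survival, had a log2 fold change of -0.86 in Static and -0.65 in dynamic cells, and the mitotic kinase Plk1 of -0.63 and -0.51. Ccna2, the cyclin of S phase and G2, was below background on all ESC-derived arrays and above it on 3 of 3 BM and 2 of 3 FL arrays, and at least 1.34-fold lower in Static and at least 1.38-fold lower in dynamic cells. Top2a, at 11.25 ± 0.18 in Static, 11.62 ± 0.37 in Spinner, 11.51 ± 0.14 in Synthecon, 11.36 ± 0.32 in BM, 11.67 ± 0.33 in FL and 11.43 ± 0.06 in Undifferentiated samples, did not pass the F test (adjusted p = 0.48).

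The second question was whether dynamic culture changed these genes against Static culture. Mcm7, Mcm10, Aurka and E2f1 rose and Ccnd2 fell, so that 4 of the 45 genes rose and 1 fell, beside 8.36% of all genes that rose and 7.21% that fell. Of the genes above background on at least 3 arrays 14.1% rose and 11.5% fell. The rises among the 45 genes were thus near the share of all genes and the falls below it. Both were below the shares of genes above background. Mcm7, a helicase subunit, read 10.37, 10.39 and 10.65 in Spinner and 10.01 and 9.75 in Synthecon, against 9.72, 8.94 and 8.53 in Static samples, with 10.44, 9.79 and 9.94 in BM, 10.53, 10.33 and 9.84 in FL, and 10.08, 8.84 and 9.46 in Undifferentiated samples. All dynamic samples lay above all Static samples and within or near the native ones. The rise was 1.11 ± 0.29 (log2, adjusted p = 0.018), lost without Static replicate 2 (1.05, 0.086), Static replicate 3 (0.85, 0.11) or Synthecon set A (1.05, 0.067). E2f1 rose by 0.70 ± 0.22 (adjusted p = 0.048), a call lost in 14 of 17 such fits, and Aurka by 0.66 ± 0.19 (adjusted p = 0.028), lost in 5 of 17. With the slide as a block 6 genes rose and 3 fell, these 5 among them. Within slide 1, with Static and Spinner replicates 1 and 2 only, 0 genes passed limma's test and 6 had an unadjusted p under 0.05, with Mcm10 at 1.04 and Ccnd2 at -2.74.

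Static replicate 1 stood apart from Static replicates 2 and 3 in this comparison. It lay above both other Static samples in 14 of the 17 replication genes, beside 35.4% of all genes, whereas Static replicates 2 and 3 lay below every dynamic sample in 10 of the 17, beside 17.8% of all genes. It was also the Static sample with Pou5f1 at 12.49 and Mpo at 7.07, closer to the dynamic samples (Mpo 5.68 to 6.52) than the other two were. Without it, 12 of the 45 genes rose and 2 fell in dynamic against Static cells, beside 12.3% and 10.7% of all genes. Of these 14 genes 4 were called with all samples and 10 were added, while Aurka was lost (0.47, adjusted p = 0.10). Where Static replicate 1 lay closest to the dynamic samples, leaving it out widens the difference by construction. The added calls therefore describe Static replicates 2 and 3 and are no separate support for a difference between the cultures. The genes that rose were Mcm2, Mcm3, Mcm5, Mcm6, Mcm7, Mcm10, Cdc6, Cdt1, the helicase factor Cdc45l, Rrm2, Ccne1 and E2f1, with Mcm10 at 1.29 (adjusted p = 3.2e-05) and Mcm7 at 1.44 (adjusted p = 0.002). Ccnd2 (-2.93) and Ccnd3 (-0.85) fell. Rrm2 was read from its brightest probe, at 0.57 in dynamic against Static cells with all samples, where its other probe had -0.15.

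Between the native sources few genes differed. Only Ccnd1, lower in BM, and Cdk6, higher in BM, passed the test between BM and FL, so that 1 of 45 genes rose and 1 fell, beside 1.01% and 0.453% of all genes. Over genes above background on at least 3 arrays the shares were 1.51% and 0.757%. Replication genes had a lower mean in BM than in FL in most cases, but 0 of the 17 were called and 0 had an unadjusted p under 0.05 in limma.

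Against Undifferentiated ESCs 2 of the 45 genes rose and 10 fell in Static cells, beside 7.22% and 7.17% of all genes. In dynamic cells 3 rose and 5 fell, beside 6.58% and 4.32%, and in native cells 16 rose and 9 fell, beside 15.5% and 17.6%. Of these, the fall of Cdk6 in Static and the rise of Cdkn1b in native cells are between values below background on both sides and carry no level, so that 9 genes with a level fell and 15 rose there. Over genes above background on at least 3 arrays, 11.7% rose and 11.6% fell in Static cells. The shares were 11% and 6.82% in dynamic and 23.9% and 28.6% in native cells. The Undifferentiated samples are shared by the 3 comparisons. Ccnd1, Ccne1 and Cdkn2b were lower, and Ccnd3 and Rbl1 higher, in all 3, with the dynamic calls of Rbl1 and Ccnd3 lost in 13 and 4 of 17 fits that left out 1 sample. In native cells E2f2, Cdkn2c, Rbl1, Rb1 and Cdkn2d had the largest rises, at 4.24, 2.73, 2.53, 2.47 and 1.91 on the log2 scale. Without Undifferentiated replicate 2, which had the highest Col1a1 of its group, 10 genes rose and 7 fell in native cells, beside 13.6% and 16% of all genes. Then 16 of the calls were shared with those of all samples and 9 were lost, among them Cdkn1a, Rrm1 (0.50, adjusted p = 0.089), Cdc6 (0.50, 0.16) and Tyms (0.38, 0.063).

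Further genes of the same processes were read from lists of their own. Of 35 other replication genes 0 rose and 15 fell in Static cells and 4 rose and 10 fell in dynamic cells, each set against native ones. The shares of all genes were 14.5% and 13.8% in Static and 20.8% and 18.1% in dynamic cells. In dynamic against Static cells 10 of the 35 rose and 0 fell, beside 8.36% and 7.21% of all genes. Against native cells the log2 fold change of thymidine kinase Tk1 was -1.97 ± 0.18 in Static cells (adjusted p = 6.6e-07). That of the flap endonuclease Fen1 was -1.50. The origin recognition subunit Orc1 and the kinase activator Dbf4 rose by 1.10 and 1.03 in dynamic against Static cells (adjusted p = 0.019 and 0.0087). Static replicates 1, 2 and 3 read 8.31, 7.15 and 6.86 in Orc1 and 10.70, 10.04 and 9.35 in Dbf4. In both genes replicate 1 was the Static sample closest to the dynamic ones. Of 32 other mitosis genes, set against native cells, 1 was higher and 9 were lower in Static cells, and 3 were higher and 5 lower in dynamic cells, the dynamic counts being below the shares of all genes (20.8% and 18.1%). The contractile ring protein Anln was up by 1.31 in dynamic cells (adjusted p = 1.4e-06). The contrast with native cells called 14.5% of all genes higher and 13.8% lower in Static cells. Of 10 checkpoint genes, also set against native cells, 1 rose and 2 fell in Static cells, beside these shares. In dynamic cells 3 rose and 0 fell, beside 20.8% and 18.1% of all genes.

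Of 25 other genes of G1 and quiescence, 4 were higher and 4 lower in Static cells than in native cells, and 5 were higher and 5 lower in dynamic cells, shares near those of all genes in both comparisons. Cdkn1c (p57), an imprinted CDK inhibitor of the Cip/Kip family, averaged 12.94 in Static, 9.78 in Spinner, 11.23 in Synthecon, 6.68 in BM, 8.88 in FL and 11.46 in Undifferentiated samples. It was 5.16 ± 0.44 higher in Static than in native cells (log2, adjusted p = 2.6e-07) and its log2 fold change in dynamic against Static cells was -2.44 (adjusted p = 0.0025), and it was below background in BM. Gfi1, a repressor that restrains division of blood stem cells in mice, read 6.55, 6.64 and 6.90 in Static samples, of which 1 of 3 was above background, and averaged 10.99 in BM and 10.20 in FL samples (adjusted p = 8.5e-11 for Static against native cells). Dynamic cells were at least 14.4-fold lower than native cells. Mybl2, a partner of the complex that binds CHR elements, was 1.81 higher in dynamic than in Static cells (adjusted p = 0.0057). Static replicates 1, 2 and 3 read 11.56, 9.20 and 9.59, against 11.68 to 12.14 in dynamic samples. Static replicate 1 was thus near the dynamic samples, and the difference came mostly from replicates 2 and 3.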

How the data were processed

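RNA of 23 samples in 6 groups was read on Illumina mouse bead arrays. Bead values had been averaged per probe by the authors, corrected for background, quantile-normalized between arrays and put on the log2 scale, and these deposited log2 values of 25697 probes were used. A second deposited table, from the authors, holds background-subtracted intensity on a linear scale, and the detection p-values deposited with it come from the authors' array software. The log2 values follow that intensity raised by an offset of 60.2, which compresses differences between dim probes. Between 9785 and 11204 probes per array were above background (detection p under 0.01), and the number of arrays limits precision. A deposited table of the authors' own test p-values was not used.

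A mean per group was fitted with limma 3.58.1 in R 4.3.3 (with the package data.table, version 1.17.8) to 17 samples, the 8 Synthecon arrays being averaged into 2 sets of near repeats. eBayes with a trend was used, and p-values were corrected across all probes after Benjamini and Hochberg, with a call at 0.05. Gene counts use the brightest probe of each of 18096 symbols. A gene below background on all arrays of a side has only a bound, the brighter mean against the lowest signal above background. Summaries and plots used python 3.11.15, pandas 2.3.3 and matplotlib 3.10.9, and the fit was tested on simulated data.

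Arrays lay on 3 slides: slide 1 held Static and Spinner replicates 1 and 2, BM replicate 1 and all Undifferentiated samples, slide 2 held Spinner replicate 3, Synthecon replicates 1 and 2, BM replicates 2 and 3 and all FL samples, and slide 3 held Static replicate 3 and Synthecon replicates 3 to 8. Slide was not in the fit and was tried as a block. Genes whose per-sample values are given were those called, without overlap and among the 3 largest changes per direction of a comparison, the gene with the largest F statistic per role, and all D cyclins and CDK inhibitors. Pcna and Aurka were added after their values were seen. Other settings tried were neqc, scaling to the 75th percentile, a filter on dim probes, the mean of a gene's probes, every array as a sample, only the groups compared, the methods' t-test, a replicate block and leaving out each sample. The genes, lists and tests were chosen with earlier results of these data known. A marker gene is not reported here.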

Additional observations from a re-analysis of the deposited data

Results flagged for a closer look

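In 5 genes the values of dynamic and Static cells against a common group had opposite signs, with the difference between the 2 cultures called by limma. Of the 16 single values 4 passed the test on their own, and in 0 pairs did both pass. Against Undifferentiated ESCs Mcm7 was 0.72 higher in dynamic and 0.40 lower in Static cells on the log2 scale, a difference of 1.11 (adjusted p = 0.018), and against native cells the 2 values were 0.03 and -1.08 with the same difference. Mcm10 differed by 0.96 (adjusted p = 0.0063), at 0.22 in dynamic and -0.74 in Static cells against Undifferentiated ESCs, and at 0.79 and -0.16 against native cells. Aurka differed by 0.66 (adjusted p = 0.028), at 0.46 in dynamic and -0.19 in Static cells against Undifferentiated ESCs. Ccnd2 differed by -2.42 (adjusted p = 0.046), at -1.69 in dynamic and 0.73 in Static cells against Undifferentiated ESCs, and at -2.35 and 0.07 against native cells. E2f1 differed by 0.70 (adjusted p = 0.048), at 0.19 in dynamic and -0.51 in Static cells against native cells. The difference is the same number against either reference because it is the comparison of dynamic with Static cells itself. The values that passed alone were those of Mcm10 in Static cells against Undifferentiated ESCs, of Mcm10 and Ccnd2 in dynamic cells against native cells, and of Mcm7 in Static cells against native cells. None of the 45 genes had a Synthecon array that stood apart from the other Synthecon arrays by Dixon's test. That test looks for 1 array apart from the rest, so it cannot show arrays that move together. In Pcna the 2 Synthecon arrays on slide 2 read 9.11 and 9.71, against 7.99 to 8.62 on slide 3, and were not flagged.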

How the results depend on the processing

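Of 101 calls of a gene in a comparison, none turned direction under any setting. With the slide as a block 83 were kept, with neqc 99, with every array as a sample 99, with the replicate block 96, with the mean of all probes 97, with scaling to the 75th percentile 92, with only the groups compared 79 and with the methods' t-test 49. The filter on dim probes kept 100 of the 100 it could test. In all fits that left out 1 sample 57 of the 101 were called.

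The number of genes called moved by more than 1.5 times as follows. Static against native cells, with 25 genes called, had 8 within slide 1 and 14 by the t-test. Dynamic against native cells, with 24, had 9 within slide 1. Dynamic against Static cells, with 5, had 8 with every array as a sample, 9 with the slide as a block, 0 within slide 1, 11 within slide 3 and 0 by the t-test. BM against FL, with 2, had 1 within slide 2, 1 with only the groups compared and 0 by the t-test. Static cells against Undifferentiated ESCs, with 12, had 7 with the slide as a block, 1 within slide 1, 1 with only the groups compared and 0 by the t-test. Dynamic cells against Undifferentiated ESCs, with 8, had 0 within slide 1 and 1 by the t-test. Native cells against Undifferentiated ESCs, with 25, had 10 within slide 1. Fits within a slide hold fewer samples, and slide 1 holds a single BM sample and no FL or Synthecon sample. Slide 3 sets Synthecon against Static replicate 3 alone. The cause of the other shifts was not tested.

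Leaving out 1 sample at a time gave 18 to 29 genes for Static against native cells, 19 to 25 for dynamic against native cells, 1 to 14 for dynamic against Static cells, 0 to 2 for BM against FL, and 4 to 16, 2 to 10 and 17 to 27 for Static, dynamic and native cells against Undifferentiated ESCs. The F test called 26 to 36 genes, against 29 with all samples. Where the count was 0, the genes with an unadjusted p under 0.05 were 6 within slide 1 and 6 by the t-test for dynamic against Static cells, 4 by the t-test and 4 without BM replicate 2 for BM against FL, 8 by the t-test for Static cells against Undifferentiated ESCs, and 10 within slide 1 for dynamic cells against them.

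Whether replicate numbers pair the samples was not settled. Over 30 pairs of groups and numbers the deviations correlated between -0.431 and 0.376, with a median of 0.072 and 11 pairs over 0.1. Samples with unlike numbers were not compared in this way, so there is no value to set beside these. With the replicate block 26, 26, 6 and 2 genes were called for Static against native, dynamic against native, dynamic against Static cells and BM against FL, 12, 8 and 26 for Static, dynamic and native cells against Undifferentiated ESCs, and 33 by the F test.

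Restricting the promoter window to the bases before the start gave an E2F motif in 10 genes, against 14 in the whole window, and a CHR in 10, against 12. Among replication genes the E2F motif was then in 5 of 15, against 8, and among mitosis genes the CHR in 4 of 9, against 6. Signal over background limits the low genes: 5 of the 45 genes had no level on any array.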
